A study of Mus musculus with 12 samples.

Results

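The D cyclin genes Ccnd1, Ccnd2 and Ccnd3, their kinase partner gene Cdk6, and the CDK inhibitor genes Cdkn1a, Cdkn1b, Cdkn1c, Cdkn2a, Cdkn2c and Cdkn2d were followed through 12 RNA-seq libraries of mouse bone marrow cells. The 10 genes were taken by symbol, and all 10 were found by NCBI gene ID among the 24028 genes of both count tables. All mice were C57BL/6. The wt LSK group held 3 libraries from wild-type control mice, whose marrow had been freed of lineage-positive cells and then FACS-sorted by the surface proteins c-Kit and Sca-1 to enrich stem and early progenitor cells. The other 3 groups, of 3 libraries each, came from iMLL-ENL mice, in which doxycycline switches on a knocked-in copy of the leukemia fusion MLL-ENL and which received the drug until acute leukemia. One, iMLL-ENL total, held unfractionated leukemic marrow, called total leukemia here, and the others held leukemic cells sorted for low or high B220 (B220 LOW, B220 HIGH), a CD45 isoform best known from B cells. The labels do not give the promoter or cell type that drives the knock-in, the age of the mice, or doxycycline for the wild-type mice. They give 3 animals per genotype without linking animals to libraries, so the p-values measure the spread between libraries.

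D cyclins bind and activate CDK4 and CDK6, and the active kinases phosphorylate the RB protein, which frees E2F factors to turn on genes for DNA replication. INK4 inhibitors, encoded by Cdkn2a, Cdkn2b, Cdkn2c and Cdkn2d, bind CDK4 and CDK6 themselves. CIP/KIP inhibitors, encoded by Cdkn1a (p21), Cdkn1b (p27) and Cdkn1c (p57), bind cyclin-CDK complexes more broadly. In blood cells p57 and p27 are known for keeping stem cells quiescent, and CDK6 is known as the CDK of hematopoietic cells on which MLL-rearranged leukemias often depend.

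Library totals ran from 10921521 to 22706882 counts. Kit, which encodes the c-Kit of the sort, stood at 1050 to 1350 CPM (counts scaled to 1e6 per library) in wt LSK and at 88.3 to 151 CPM in iMLL-ENL total. Ptprc, the gene of CD45, does not report its B220 isoform in gene counts and stood at 534 to 600 CPM in B220 HIGH and 241 to 610 CPM in B220 LOW. All 12 stem cell and LSK markers had fallen in iMLL-ENL total, with a summed level of 4141 to 4591 CPM in wt LSK and 404 to 651 CPM in iMLL-ENL total. Of 11 neutrophil markers 8 were higher there, with a summed level of 145 to 272 CPM in wt LSK and 1366 to 12846 CPM in iMLL-ENL total. All 6 promyelocyte markers were higher as well, from 1255 to 2086 CPM in sum to 6086 to 17621 CPM. These are edgeR calls at an adjusted p under 0.05, where 15.5% of all genes tested were called higher and 15.1% lower. The sort of wt LSK used c-Kit and Sca-1, whose genes are on the stem cell list, after lineage-positive cells were removed. These marker differences therefore cannot be told apart from that sort. The 10 B lineage markers in the tables summed to 308 to 1299 CPM in wt LSK (4 of the 9 tested were lower in iMLL-ENL total), 19.9 to 45.4 CPM in iMLL-ENL total, 7.27 to 14.9 CPM in B220 LOW and 10.9 to 88 CPM in B220 HIGH. Pax5, Igll1 and Rag1 had no count in B220 LOW. The part of these cell type differences in the results below was not tested, and in bulk samples fewer cells of a type and less RNA per cell cannot be told apart.

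The first comparison set total leukemic marrow against normal stem and progenitor cells, which differ in sort and genotype as well as in leukemia, and these cannot be told apart. Whether doxycycline differed too is not known from the labels. Ccnd2 was nearly lost, while Ccnd3 and the INK4 gene Cdkn2d were higher, and Cdk6 and the other members tested did not pass. By edgeR's quasi-likelihood test, 3 of the 9 members tested had an adjusted p under 0.05, 1 lower and 2 higher. Over all 13811 genes tested 30.6% were called, 15.5% higher and 15.1% lower, so the members' share was near the background. A fit with the replicate number as a block called the same number of members, 3, and 29.3% of all genes. The libraries of the 2 groups did not overlap for these 3 members and overlapped for the other 6, and 48.5% of all genes tested had no overlap. Cdkn2a was not tested because its counts were too low.

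**Figure D1:**
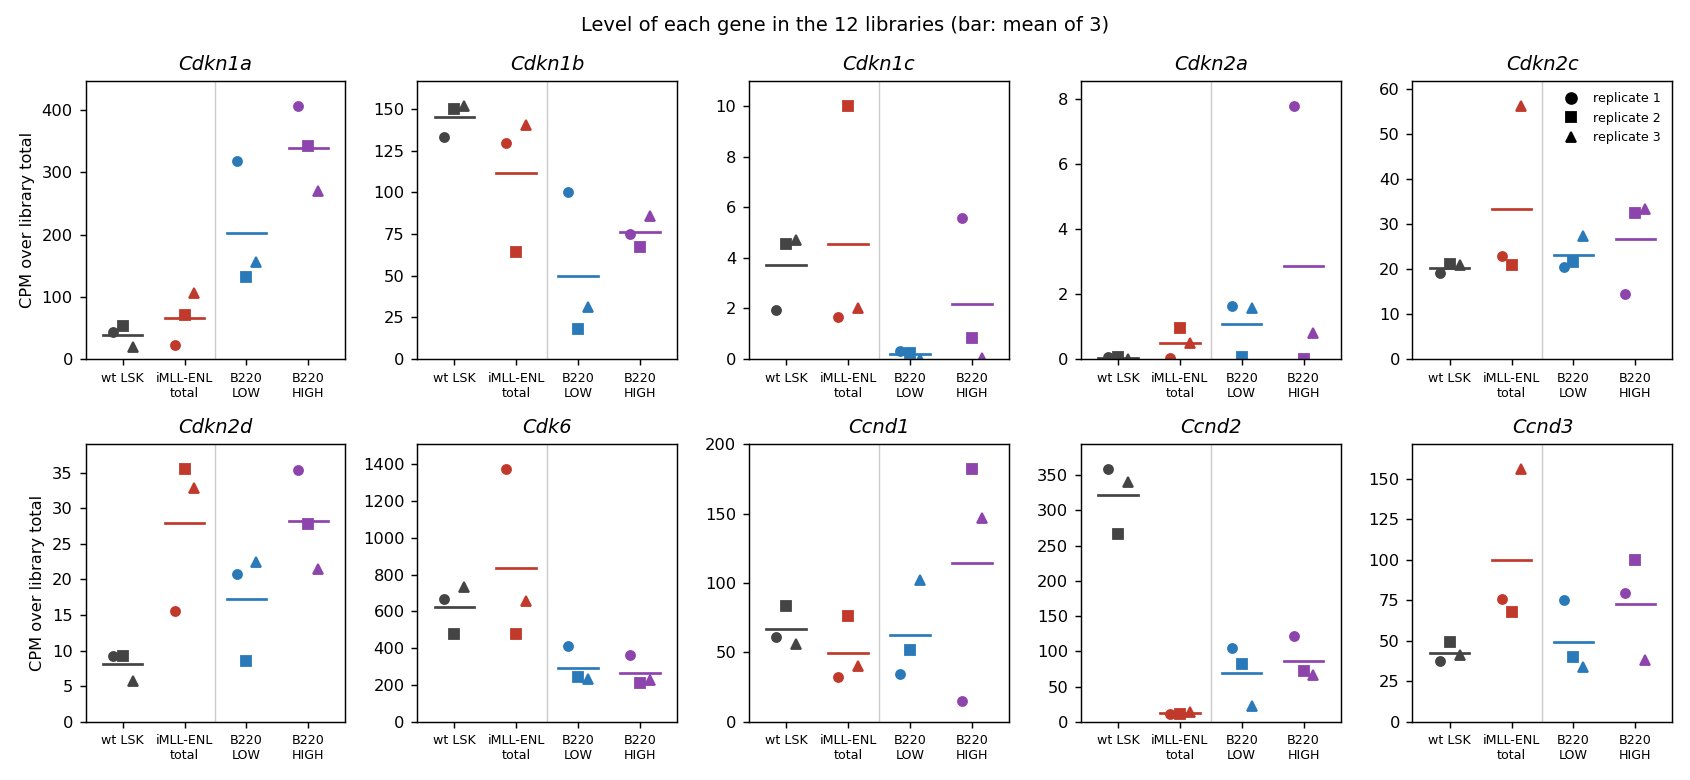
Level of each gene (vertical axis, CPM over the library total, from 0) in the 12 libraries, with a marker shape for each replicate number and a bar at the mean of 3. The grey line parts the 2 count tables. Ccnd2 sits at 267 to 359 CPM in wt LSK and at 11.2 to 14.0 CPM in total leukemia.

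Ccnd2 (NCBI gene 12444, chromosome 6, 127125162 to 127152188, GRCm38) encodes cyclin D2. Its level was 359, 267 and 341 CPM in wt LSK replicates 1, 2 and 3 and 11.2, 11.3 and 14.0 CPM in total leukemia replicates 1, 2 and 3. Every total leukemia library was far below every wt LSK one, and the total leukemia libraries lay close together. Ccnd2 fell by 4.58 in log2 units (SE 0.25; edgeR, adjusted p = 1.43e-05), rank 35 by p among 13811 genes. An antisense RNA gene, 9330179D12Rik, shares exon sequence with Ccnd2, and the kit does not keep strand. It fell too, from 2.87 ± 0.24 CPM to 0.184 ± 0.246 CPM (SD, n = 3, edgeR adjusted p = 0.0228), levels far under those of Ccnd2.

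Ccnd3 (NCBI gene 12445, chromosome 17, 47505051 to 47599689) encodes cyclin D3. It stood at 37.7, 49.0 and 41.4 CPM in wt LSK and at 75.6, 67.9 and 156 CPM in total leukemia, with replicate 3 well above the other leukemic libraries. Ccnd3 rose by 1.40 (SE 0.34, edgeR adjusted p = 0.0150). It no longer passed when wt LSK replicate 1, 2 or 3 was left out (adjusted p = 0.0782, 0.0525 and 0.0610), nor when tested for a fold change above 2 (adjusted p = 0.214). Without total leukemia replicate 3 the change was 0.84 (adjusted p = 0.0197). Ccnd3 overlaps exons of Bysl, a ribosome biogenesis gene on the other strand, which rose from 40.7 ± 7.06 CPM to 59.0 ± 1.47 CPM (adjusted p = 0.0443), so the counts of Ccnd3 are uncertain to that extent.

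Ccnd1 (NCBI gene 12443, chromosome 7, 144929931 to 144939831) encodes cyclin D1, a common endpoint of growth factor signalling. It had 61.2, 83.6 and 55.9 CPM in wt LSK and 32.1, 76.3 and 39.9 CPM in total leukemia. The groups overlapped through replicate 2, the highest of each group, and Ccnd1 did not pass (log2 change -0.28, SE 0.33, adjusted p = 0.570). It shares exon sequence with LTO1 on the other strand, which had 44.5 ± 5.83 and 34.6 ± 4.52 CPM.

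The make-up of the D cyclin pool can be compared between genes only per length, here as CPM per kb of the gene width in the deposited tables. In wt LSK, Ccnd2 made up 74.0%, 61.2% and 73.5% of the summed level of the 3 genes in replicates 1, 2 and 3. In iMLL-ENL total its share was 7.81%, 5.85% and 5.59%. Ccnd3 held 9.17% to 13.3% in wt LSK and 62.3%, 41.5% and 73.3% in total leukemia replicates 1, 2 and 3. The largest share was that of Ccnd2 in all 3 wt LSK libraries, of Ccnd3 in total leukemia replicates 1 and 3, and of Ccnd1, at 52.6%, in replicate 2. The summed level was 75.2 ± 3.97 CPM per kb in wt LSK and 31.9 ± 8.79 CPM per kb in total leukemia (SD, n = 3). The deposited width of Ccnd3, 5207 bases, is well over its longest GENCODE basic transcript of 2113 bases. Per kb of that transcript, a scale added after the data were seen, the mean share of Ccnd3 was 22.7% in wt LSK and 74.0% in total leukemia, and that of Ccnd2 57.1% and 3.22%. On that scale Ccnd3 had the largest share in all 3 total leukemia libraries, at 59.2% or more. The summed level was then 89.0 ± 1.67 CPM per kb in wt LSK and 62.4 ± 21.4 CPM per kb in total leukemia. The highest total leukemia library stood at 86.7 and the lowest wt LSK one at 87.7. The size of the fall in the sum thus depends on the length used.

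**Figure D2:**
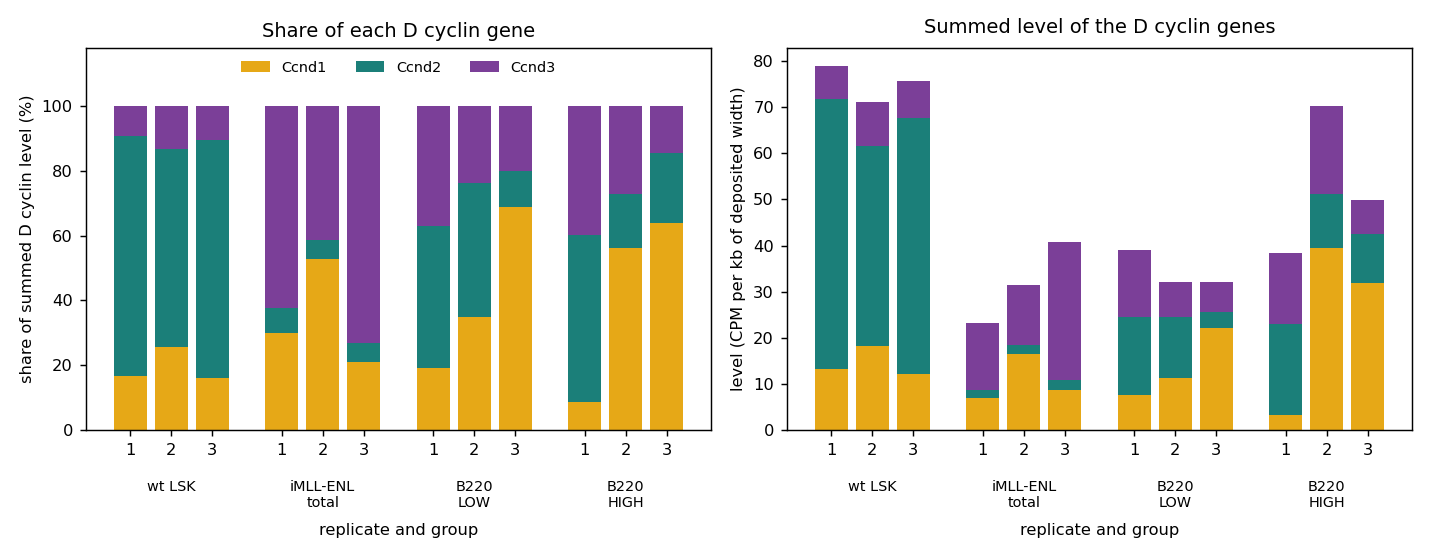
Left, share of Ccnd1, Ccnd2 and Ccnd3 in the summed D cyclin level of each library (percent); right, the summed level in CPM per kb of deposited gene width, both as stacked bars from 0 by group and replicate. Ccnd2 holds 61.2% to 74.0% in wt LSK and 5.59% to 7.81% in total leukemia.

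Cdk6 (NCBI gene 12571, chromosome 5, 3341004 to 3531008) had 669, 476 and 732 CPM in wt LSK and 1375, 477 and 657 CPM in total leukemia. It had the highest mean CPM of the members in both groups, a count level that is not set per length here because the deposited width of 2742 bases is far under the 11525 bases of its longest GENCODE basic transcript. Replicate 1 of iMLL-ENL total stood alone above all other libraries, and the remaining total leukemia libraries lay within the wt LSK range. Cdk6 did not pass (log2 change 0.55, SE 0.38, adjusted p = 0.302).

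Cdkn2d (NCBI gene 12581, chromosome 9, 21288459 to 21291421) encodes the INK4 inhibitor p19INK4d. It stood at 9.24, 9.27 and 5.71 CPM in wt LSK and at 15.5, 35.5 and 32.9 CPM in total leukemia. All total leukemia libraries were above all wt LSK ones, and replicate 1 was the lowest of them. Cdkn2d rose by 1.95 (SE 0.40, edgeR adjusted p = 0.00728). The summed level of the 11 neutrophil markers in the same leukemic libraries was 1366, 10745 and 12846 CPM, lowest in the library with least Cdkn2d. The promyelocyte and monocyte sums were lowest in that library too, at 6086 and 1622 CPM. In B220 HIGH the neutrophil sums of replicates 1, 2 and 3 were 202, 16635 and 5102 CPM and Cdkn2d had 35.3, 27.7 and 21.4 CPM, so there the library with the lowest sum had the most Cdkn2d. In B220 LOW the sums of replicates 1, 2 and 3 were 849, 2039 and 3743 CPM and Cdkn2d had 20.8, 8.56 and 22.4 CPM. Cdkn2d was there highest in the library with the highest sum and lowest in replicate 2. That B220 LOW replicate 2 was also below wt LSK replicates 1 and 2. The part of these cell types in the rise of Cdkn2d was not tested.

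Bases before RefSeq start sites of the 2 members that rose are shown. The Cdkn2d start used here lies inside the RefSeq gene, whose span on the minus strand begins at 21291421. Its window, chr9:21291210-21291459, is therefore mostly within the gene, as is the end of its printed bases. The second start of Ccnd3 also lies within its gene. Sequences are from RefSeq (GRCm38.p6), 5′ to 3′ on the gene's strand, with capitals for GC boxes (GGGCGG) and CCAAT boxes (CCAAT) on either strand. Each is taken from the 250 bases before a RefSeq start and ends where a GENCODE exon begins, which leaves 52 bases for Cdkn2d (chr9:21291408-21291459, minus strand), 250 for the first start of Ccnd3 (chr17:47504801-47505050, plus strand) and 219 for its second (chr17:47593217-47593435, plus strand).
Cdkn2d: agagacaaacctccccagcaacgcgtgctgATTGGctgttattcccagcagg
Ccnd3, first start: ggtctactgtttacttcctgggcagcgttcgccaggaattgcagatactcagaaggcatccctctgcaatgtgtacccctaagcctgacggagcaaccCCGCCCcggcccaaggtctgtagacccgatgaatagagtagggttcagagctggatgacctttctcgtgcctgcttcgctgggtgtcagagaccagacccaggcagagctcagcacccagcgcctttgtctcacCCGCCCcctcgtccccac
Ccnd3, second start: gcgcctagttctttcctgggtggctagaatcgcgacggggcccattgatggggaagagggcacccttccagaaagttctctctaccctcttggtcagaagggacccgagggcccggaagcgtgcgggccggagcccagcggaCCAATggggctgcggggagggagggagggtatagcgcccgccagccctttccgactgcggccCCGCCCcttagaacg

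Over the full 250 bases, Cdkn2d had 3 GC boxes and 1 CCAAT box, the first start of Ccnd3 had 2 GC boxes and no CCAAT box, and the second had 1 of each. The GC boxes of Cdkn2d lie past its printed bases, within the RefSeq gene. A GC box was found in 7 of the 11 windows of the 7 members in the table, against 32.7% of 32841 windows of the same length over all genes, and a CCAAT box in 3 of 11, against 33.9%. Of the E2F forms searched on both strands, TTTCCCGC was in 1 of 11 windows, that of the upstream start of Cdkn2a, against 0.895% of all windows, and TTTGGCGC in 0 of 11, against 0.417%. The E-box CACGTG was in 1 of 11, that of Cdk6, against 6.02%. These are matches of letters in short windows, with no adjustment for GC content, and windows within a gene span were counted too. The median GC content of all windows was 52.4%. Among the member windows, a Cdkn2c window at 42.8% was alone under that median, and the highest, of Cdkn2a, had 78.4%. Cdkn1c, Ccnd1 and Ccnd2 had no window in the table.

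Cdkn2c (NCBI gene 12580, chromosome 4, 109660876 to 109666756), which encodes p18INK4c, was steady at 19.1, 21.1 and 20.8 CPM in wt LSK and stood at 22.9, 20.8 and 56.1 CPM in total leukemia. Replicate 3 of the leukemic libraries was far above the others, the same library in which Ccnd3 was highest, and Cdkn2c did not pass (log2 change 0.88, SE 0.41, adjusted p = 0.138). Cdkn2a (NCBI gene 12578, chromosome 4, 89274473 to 89294619) encodes p16INK4a and, from another first exon, the p53 activator p19ARF, which gene counts do not separate. It had 1, 1 and 0 counts in wt LSK and 1, 17 and 11 counts in total leukemia. The ratio of the summed counts, scaled by the summed library totals, was 13.1, with a 95% exact counting interval of 3.32 to 114. That interval covers counting error only. Replicate 1 of iMLL-ENL total was as low as the normal libraries. Its neighbour Cdkn2b, which encodes p15INK4b and stood on a list of CDK regulators, had 0, 0 and 0.255 CPM in wt LSK and 1.95, 1.78 and 6.56 CPM in total leukemia. Cdkn2b rose by 5.37 (SE 1.24, edgeR adjusted p = 0.0121), from 5 counts in all of wt LSK.

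No CIP/KIP gene passed. Cdkn1a (NCBI gene 12575, chromosome 17, 29090979 to 29100722) had 43.6, 53.2 and 19.1 CPM in wt LSK and 23.2, 70.0 and 106 CPM in total leukemia. The groups overlapped through leukemic replicate 1 (log2 change 0.95, SE 0.56, adjusted p = 0.244), and without that library the change was 1.37 (adjusted p = 0.0420). Cdkn1b (NCBI gene 12576, chromosome 6, 134920401 to 134925525) had 133, 150 and 152 CPM in wt LSK and 130, 64.4 and 141 CPM in total leukemia (log2 change -0.22, SE 0.29, adjusted p = 0.605). Only total leukemia replicate 2 was clearly below the others of these groups. Cdkn1c (NCBI gene 12577, chromosome 7, 143458339 to 143461059) was low throughout, at 1.93, 4.55 and 4.69 CPM in wt LSK and 1.67, 9.999 and 2.03 CPM in total leukemia (log2 change 0.45, SE 0.75, adjusted p = 0.685). The same leukemic replicate 2 was the one highest for Cdkn1c.

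**Figure D3:**
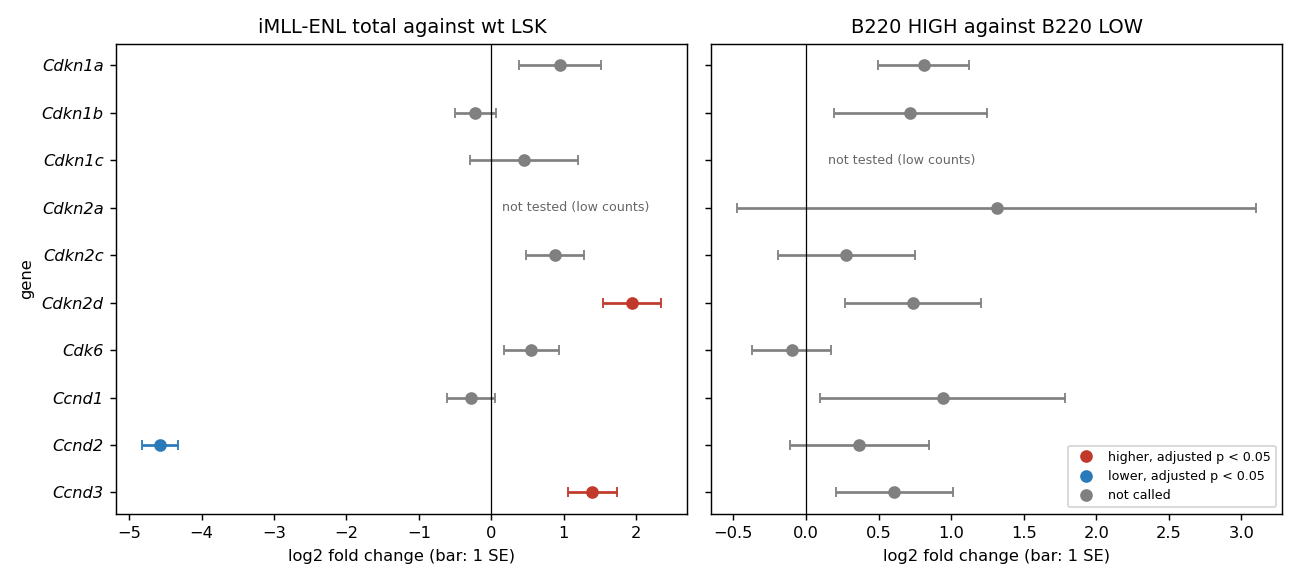
Log2 fold change of each member (points) with 1 SE (bars) in the 2 comparisons, from edgeR. Ccnd2 is lower and Cdkn2d and Ccnd3 are higher in total leukemia than in wt LSK, and no member is called between B220 HIGH and B220 LOW.

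The other genes of the pathway were counted in 6 lists, to be read against the 15.5% of all genes called higher and the 15.1% called lower. No list was tested against the other genes, so the counts are a description. Of 11 other cyclins and CDKs tested, 5 were higher, 0 lower and 6 did not pass, with a median log2 change of 0.66 against 0.05 over all genes tested. Ccne1, which encodes cyclin E1, the partner of CDK2 at entry into S phase, had 5.71 ± 1.53 CPM in wt LSK and 17.4 ± 1.35 CPM in total leukemia (SD, n = 3) and rose by 1.77 (SE 0.32, edgeR adjusted p = 0.00414). The mitotic genes Ccnb2 and Cdk1 rose by 0.96 and 0.87 (adjusted p = 0.0164 and 0.0322). With upper-quartile factors or library totals alone 2 of these 11 genes were higher and 1 lower, and 1 was higher without wt LSK replicate 1 and 2 without wt LSK replicate 2 or 3 or total leukemia replicate 2 or 3. Of 23 replication and mitosis genes, 7 were higher, 0 lower and 16 did not pass (median 0.48), among them Aurkb, which encodes a mitotic kinase (log2 change 1.13), Rrm2, a subunit gene of ribonucleotide reductase (1.61), and Birc5, which encodes survivin (1.38). Their adjusted p were 0.00244, 0.00265 and 0.00365. Without wt LSK replicate 2 or 3 the list had 4 genes higher.

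The RB and E2F genes went both ways, with 4 of 13 higher, 3 lower and 6 not passing (median 0.19). E2f2, which encodes an activator E2F, averaged 26.3 ± 4.00 CPM in the wt LSK libraries and 73.3 ± 14.0 CPM in total leukemia (SD, n = 3), a rise of 1.65 (SE 0.23, edgeR adjusted p = 0.00131). Tfdp2, which encodes a dimer partner of E2F proteins, fell by 1.45 (SE 0.20, adjusted p = 0.00122), and E2f5, which encodes a repressor E2F, fell by 1.44 (SE 0.32, adjusted p = 0.00958). Of 14 CDK regulators and turnover genes, 4 were higher, 0 lower and 10 did not pass (median 0.47). Besides Cdkn2b these included Cdk2ap2, a CDK2-associated gene, which rose by 2.73 (adjusted p = 0.000933), and Pkmyt1, which encodes an inhibitory kinase of CDK1 and rose by 0.94 (adjusted p = 0.0106). Without wt LSK replicate 2 or 3, 2 genes of each of these lists were higher, and without wt LSK replicate 1, 2 of the CDK regulators.

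Of 21 regulators of the CDK inhibitor genes, 2 were higher, 6 lower and 13 did not pass (median -0.34). Mycn, a MYC family gene, had 3212 counts in wt LSK and 0 in total leukemia, at least 1185-fold lower if the group floor is set at 3 counts (adjusted p = 4.66e-05). Smad3, a signal transducer of TGF-beta, fell by 2.24 (SE 0.21, adjusted p = 0.000191), and Gfi1, a transcriptional repressor of granulocytes, rose by 3.09 (SE 0.37, adjusted p = 0.000619). Of this list 1 gene was higher without any 1 of the wt LSK libraries, without total leukemia replicate 3, with the other scalings or with the block. Of 17 p53 targets besides Cdkn1a, 4 were higher, 2 lower and 11 did not pass (median -0.11). The death receptor gene Fas and Pmaip1, which encodes Noxa, rose by 4.11 and 4.16, while Sesn1, a sestrin gene, fell by 2.23. Their adjusted p were 0.000527, 0.00106 and 0.000341. Without wt LSK replicate 1 or 3 or total leukemia replicate 2, 2 of the p53 targets were higher, and without total leukemia replicate 3, 4 were lower. With library totals alone 2 were higher, and DESeq2 called 4 lower. When tested for a fold change above 2, each of the 6 lists had fewer called genes. The replication and mitosis genes then had 1 higher and the other cyclins and CDKs 1 higher. The RB and E2F genes had 1 higher and 1 lower, and the CDK regulators 2 higher. The regulators of the CDK inhibitor genes had 1 higher and 4 lower, and the p53 targets 2 higher and 2 lower. Over all genes 2047 were called, against 4221.

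**Figure D4:**
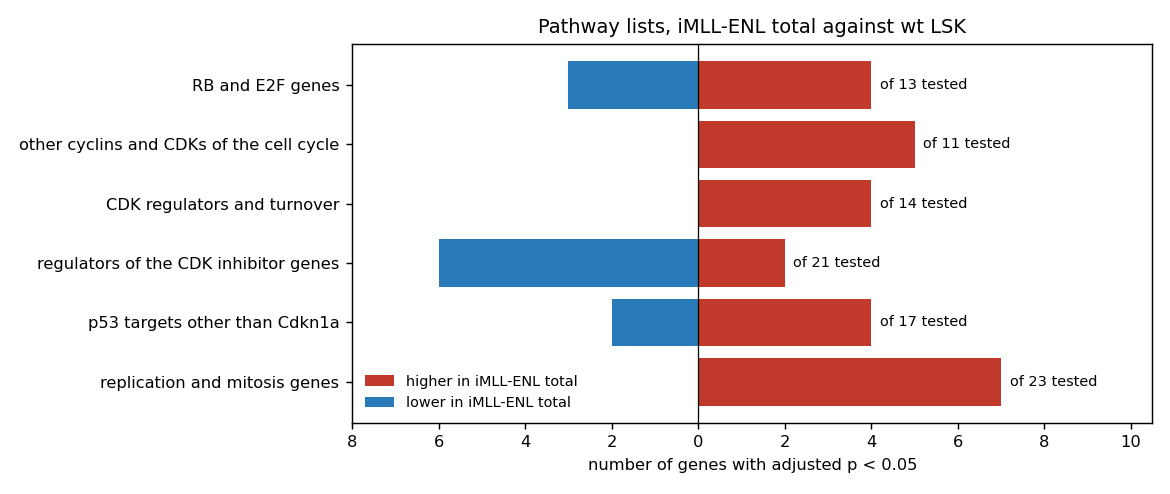
Number of genes of each pathway list called higher (right, red) or lower (left, blue) in total leukemia than in wt LSK at an edgeR adjusted p under 0.05, with the number tested. The other cyclins and CDKs have 5 higher and 0 lower of 11, and the regulators of the CDK inhibitor genes 2 higher and 6 lower of 21.

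The second comparison asked whether leukemic cells of high and low B220 differ. No member was called among the 9 tested, and edgeR called 0 of 12564 genes (0%), with 880 at an unadjusted p under 0.05. DESeq2 called 232 genes, limma-voom 1 and the edgeR fit with the replicate number as a block 79 (0.629%), and no member was among those calls. None of the 6 pathway lists had a called gene by edgeR. For each member tested the libraries of the 2 groups overlapped, while 13.4% of all genes tested had no overlap.

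For 5 of the 10 marker lists the summed levels did not overlap between the fractions. Promyelocyte markers had 1611 to 7099 CPM in LOW and 483 to 1378 CPM in HIGH. Of these markers only Cebpe was higher in HIGH, with a log2 change of 0.96. Monocyte and macrophage markers had 418 to 673 CPM in LOW and 877 to 2256 CPM in HIGH. Megakaryocyte markers had 3.43 to 7.81 CPM in LOW and 34.6 to 65.4 CPM in HIGH, and stem cell and LSK markers 340 to 388 CPM in LOW and 691 to 974 CPM in HIGH. Of the stem cell and LSK markers tested, only Kit was lower in HIGH, with a log2 change of -0.45. T and NK cell markers had 0.180 to 1.57 CPM in LOW and 1.77 to 44.9 CPM in HIGH. These sums rest on few counts. Only 1 of the 8 T and NK markers was tested. The 44.9 CPM was HIGH replicate 2, while HIGH replicates 1 and 3 had 2.11 and 1.77 CPM. No single marker was called, and the part of these cell types in the members' values was not tested.

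Cdkn1a had the lowest adjusted p of the members. It had 318, 132 and 157 CPM in B220 LOW replicates 1, 2 and 3 and 406, 342 and 270 CPM in B220 HIGH replicates 1, 2 and 3. HIGH was above LOW in 3 of 3 same-numbered pairs, with overlap between the groups through LOW replicate 1. The log2 change was 0.81 (SE 0.31, edgeR adjusted p = 0.660), and 0.88 (SE 0.21, adjusted p = 0.141) with the replicate block. Of the other members, Cdkn1c and Ccnd3 also had HIGH above LOW in 3 of 3 pairs. Cdk6 had 0 of 3, Cdkn2a 1 of 3 and the rest 2 of 3. The share of all genes with 3 such pairs was not counted. Cdkn2b, outside the members, had 0.131, 3.12 and 1.56 CPM in B220 LOW and 5.77, 13.2 and 15.98 CPM in B220 HIGH, with no overlap and no call (log2 change 2.90, adjusted p = 0.646, and 0.178 with the block).

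Among the D cyclin genes, Ccnd1 had 34.6, 51.6 and 102 CPM in B220 LOW and 15.1, 182 and 147 CPM in B220 HIGH (log2 change 0.94, SE 0.84, adjusted p = 0.898). LTO1, which shares exon sequence with it, had 22.9, 40.5 and 45.4 CPM in LOW and 43.2, 112 and 91.8 CPM in HIGH (log2 change 1.24, edgeR adjusted p = 0.642), with the same order of replicates, so the Ccnd1 counts are uncertain here as well. Ccnd2 had 104, 81.8 and 22.1 CPM in B220 LOW and 122, 71.4 and 65.6 CPM in B220 HIGH (log2 change 0.37, SE 0.48, adjusted p = 0.938). In both fractions replicate 1 was lowest for Ccnd1 and highest for Ccnd2. Per kb of deposited width, Ccnd2 held the largest D cyclin share in replicate 1 of both fractions, at 43.7% in LOW and 51.7% in HIGH, and Ccnd1 in replicate 3 of both, at 68.7% and 63.9%. In replicate 2 it was Ccnd2 in LOW, at 41.5%, and Ccnd1 in HIGH, at 56.2%. Per kb of the longest GENCODE transcript Ccnd2 was largest in none of the 6 libraries. Ccnd3 then led in replicate 1 of LOW and HIGH, at 58.0% and 61.7%, and in LOW replicate 2, at 41.4%. Ccnd1 still led in replicate 3 of both, at 58.4% and 58.1%, and stood at 45.4% beside 44.1% for Ccnd3 in HIGH replicate 2. Ccnd3 had 75.0, 39.8 and 33.6 CPM in LOW and 79.3, 100.002 and 37.9 CPM in HIGH, higher in HIGH in 3 of 3 pairs (log2 change 0.61, SE 0.41, adjusted p = 0.852).

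Cdk6 was nearly even between the fractions, at 411, 241 and 230 CPM in LOW and 360, 209 and 227 CPM in HIGH (log2 change -0.10, SE 0.27, adjusted p = 0.977). In both it was highest in replicate 1, and LOW was slightly above HIGH in each same-numbered pair. Among the inhibitors, Cdkn1b had 100, 18.2 and 31.5 CPM in LOW and 75.2, 67.2 and 85.8 CPM in HIGH (adjusted p = 0.869). Its LOW libraries spread widely and its HIGH libraries lay close together. Cdkn2d had 20.8, 8.56 and 22.4 CPM in LOW and 35.3, 27.7 and 21.4 CPM in HIGH (adjusted p = 0.841), and Cdkn2c 20.5, 21.6 and 27.4 CPM in LOW and 14.4, 32.4 and 33.3 CPM in HIGH (adjusted p = 0.959). Both groups of libraries overlapped for each of these genes.

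Cdkn2a and Cdkn1c had few counts. Cdkn2a had 25, 1 and 26 counts in LOW and 85, 0 and 16 counts in HIGH (log2 change 1.32, SE 1.79, adjusted p = 0.939). The 0 in HIGH replicate 2 allows up to 0.149 CPM, by 3 counts in that library. Without HIGH replicate 1 the log2 change was -1.25. Cdkn1c, not tested here, had 5, 3 and 0 counts in LOW and 61, 17 and 1 counts in HIGH, of which HIGH replicate 1 gave most. The ratio of summed counts, scaled by the summed library totals, was 8.82, with a 95% exact counting interval of 4.26 to 21.1. This covers counting error only and not the spread between libraries.

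The 2 tables can be set side by side only as levels, since no test crossed them, and B220 LOW and B220 HIGH were sorted by FACS while the total leukemic samples are described as total marrow. Cdkn1a was highest in the sorted fractions, at 132 to 406 CPM over their 6 libraries against 23.2 to 106 CPM in total leukemia and 19.1 to 53.2 CPM in wt LSK. Ccnd2 was in between, at 22.1 to 122 CPM in the fractions, above every iMLL-ENL total library and below every wt LSK library. Cdk6 was lowest in the fractions, at 209 to 411 CPM, with no overlap with the other groups. Thus 2 members had all 6 fraction libraries above all 3 total libraries and 1 had them below, against 11.3% and 8.74% of the 13174 genes with a mean of at least 1 CPM. The fraction libraries overlapped with iMLL-ENL total for the other 7 members. Whether the cell sort, the fraction or the animals set these level differences cannot be told apart. The order of group means for Cdk6 was iMLL-ENL total, wt LSK, B220 LOW and B220 HIGH, and as neighbours only wt LSK and B220 LOW did not overlap. For Ccnd2 it was wt LSK, B220 HIGH, B220 LOW and iMLL-ENL total, and only the B220 groups overlapped. For Cdkn1a it was B220 HIGH, B220 LOW, iMLL-ENL total and wt LSK, and only B220 LOW and iMLL-ENL total did not overlap as neighbours. For the other 7 members every pair of neighbours in the order overlapped.

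Genes with the most similar profile over the 12 libraries were found by the root mean square distance between log2(CPM + 0.5) profiles, each centred on its own mean, among 13164 genes. All 12 libraries enter, so the group differences themselves weigh in the distance, and it is a description only. Nearest to Ccnd3 were E2f2 at 0.29 and the membrane protein gene Tmem63a at 0.29, where the profile of Ccnd3 itself spread by 0.65 and the median gene lay 0.97 away. Nearest to Cdk6 were Polr2a, which encodes the large subunit of RNA polymerase II, at 0.28 and Cacfd1 at 0.29. Cdkn2d lay nearest to Aifm2 (0.36) and Rasgrp4 (0.40), a guanine exchange factor gene of myeloid cells. Cdkn2c lay nearest to Svil (0.26) and Cd44 (0.27), which encodes an adhesion receptor, and Cdkn1b to Zfp282 (0.22) and Zdhhc18 (0.35). Members that varied more had larger distances. The nearest to Ccnd2, which itself spread by 1.75, were Zfp820 and Luzp1 at 0.60 each, to Cdkn1a, which spread by 1.44, Bhlhe40 (0.56) and Tubb2a (0.61), and to Ccnd1 Fbxl15 (0.51) and BC028528 (0.52). For the low genes they were B330016D10Rik (0.59) and Vsig10l (0.63) for Cdkn1c and Bcas1os2 (0.51) and Sult4a1 (0.62) for Cdkn2a.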

How the data were processed

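RNA from 12 libraries was analysed. Per the labels' protocols, RNA came from a Pico Pure kit and unstranded libraries from a NuGen Ovation kit. The 2 deposited count tables hold raw read counts per NCBI gene ID, the first for iMLL-ENL total beside wt LSK and the second for the B220 groups. The deposited tables give a gene width in bases (unit: other), used only for D cyclin shares. The submitters' processing notes name edgeR, GRCm38 and mm10, with aligner and counter not given in the sources used here. The authors' scaled tables were not used. RefSeq (GRCm38.p6) matched 23968 of 24028 IDs to symbols, and exon overlaps came from GENCODE M21.

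Each comparison was fitted within its own table over all genes with edgeR 4.0.16 (R 4.3.3): quasi-likelihood F test, robust, TMM factors, filterByExpr with a minimum count of 10, two-sided, Benjamini-Hochberg adjustment, calls at an adjusted p under 0.05. Alternatives were DESeq2 1.42.0, limma-voom 3.58.1, other scalings, no filter, a fold change of at least 2, a replicate block and leaving out each library. The fit was tested on simulated data. All 10 members are reported, up to 3 called genes per pathway list by smallest p, and the 2 nearest profiles per member. The members and lists were chosen with earlier results of these data known. Of the 10 marker lists, 7 are printed. Listed symbols that matched no gene in the tables were Ccnd1bp1, Ly6g, Azu2, Ighm, Trac, Hba-a1 and Hbb-bt.

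Replicates are numbered 1 to 3 in every group, with no label explaining the numbers. Deviations of same-numbered B220 libraries from their group means correlated at 0.397, 0.198 and 0.307 across genes, each over 0.1. On the strength of this correlation alone, these libraries were also compared as pairs. The main B220 fit ignored the pairs, and only the alternative with the replicate block, which called 79 genes, took them into account.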

Additional observations from a re-analysis of the deposited data

How the results depend on the processing

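The calls of Ccnd2 and Cdkn2d held in all 13 alternatives to the first comparison, with log2 changes of -4.77 to -4.50 and 1.75 to 2.26. Ccnd3 kept its direction in all 13 and its call in 9. Genes called in the first comparison numbered 2047 when tested for a fold change above 2 and 2636 to 4528 with 1 library left out, against 4221. Members called numbered 2 to 4. In the second comparison DESeq2 called 232 genes, limma-voom 1, no filter 22, and fits without 1 library 0 to 96, the 96 without B220 HIGH replicate 1, with no member among them. With the replicate number as a block, 4048 and 79 genes were called. The first comparison's same-numbered libraries correlated at 0.0164, 0.160 and -0.0358, and different-numbered ones at up to 0.144. The labels do not say whether same-numbered libraries share more than a number. The block changed no member's call. Signs of uncalled members turned as follows, and the cause was not tested. With limma-voom Cdkn1c was -0.028 in the first comparison and Cdkn2a -0.71 in the second. With 1 library left out at a time, Cdkn1c ran from -0.83 (without iMLL-ENL total replicate 2) to 0.86 and Cdkn1b from -0.49 to 0.067 (without the same library) in the first. In the second, Cdkn2a ran from -1.25 (without HIGH replicate 1) to 1.92, Cdk6 from -0.29 to 0.13 (without LOW replicate 1, and 0.044 without HIGH replicate 2), and Ccnd2 from -0.019 (without LOW replicate 3) to 0.70. Upper-quartile factors moved the median change of all genes from 0.05 to -0.11 and library totals alone to -0.10, with Ccnd3 at 1.23 under both. Low counts limit Cdkn2a and Cdkn1c.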
